A study of Homo sapiens with 9 samples.

Results

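Caffeine given alone was compared with no treatment in HuH-7, a human hepatocellular carcinoma cell line that keeps the expression of many liver genes. The comparison rests on 2 of the 9 libraries of the series: cells with caffeine at 2 mM and untreated control cells, 1 library each. All genes were taken, and 18237 of 63677 gene identifiers passed the filter, a level of 1 CPM or more in 2 or more libraries (CPM are counts normalised to library size). Another 3 libraries are used beside them: acetaminophen at 10 mM with caffeine at 2 mM, acetaminophen at 10 mM alone, and exosomes prepared from 1 ml of serum. The other 4 libraries enter only the additive model at the end: exosomes given with acetaminophen, 2 doses of arsenic alone (5 and 15 µM), and the 5 µM arsenic dose combined with 5 µM copper. All cultures were the same line, and the RNA was total RNA depleted of ribosomal RNA, sequenced on an Ion Torrent Proton. Neither the exposure times nor the number of cultures behind a library is stated in the labels.

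Caffeine, a methylxanthine, blocks adenosine receptors at low concentrations. At millimolar concentrations it also inhibits phosphodiesterases, which break down cyclic AMP, opens ryanodine receptors, which release calcium, and inhibits kinases of the ATM, ATR and mTOR family. In hepatocytes cyclic AMP switches on gluconeogenic genes, and the liver clears caffeine mainly through CYP1A2.

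The caffeine library held 8227906 counts on genes and the control library 951816, so 1 count equals 0.117 CPM with caffeine and 0.965 CPM in the control. CPM values are scaled by TMM (trimmed mean of M-values) and compare a gene between libraries, not genes with each other. A gene at 5 CPM has a 95% counting interval of 3.64 to 6.78 CPM with caffeine and of 1.57 to 11.3 CPM in the control. Of the genes kept, 9343 had fewer than 10 counts in the control. The 13 markers of a hepatocyte-derived line all had counts in both libraries and summed to 30820 CPM with caffeine and 27181 CPM in the control. ALB, which encodes serum albumin, stood at 6360 CPM with caffeine and 6790 CPM in the control, and AFP, the fetal serum protein that many liver tumours make, at 9053 and 5891 CPM in the same order. Markers of other cell types were counted as well. The 12 endothelial markers summed to 3.51 CPM with caffeine (4 at 0, among them PECAM1) and 9.65 CPM in the control (7 at 0, among them PECAM1 and CDH5). The 12 fibroblast and stellate markers summed to 168 CPM with caffeine (none at 0) and 208 CPM in the control (5 at 0), of which FBLN1 made 129 and 135 CPM. The 16 blood markers summed to 133 CPM with caffeine and 179 CPM in the control, with 9 at 0 in each, and LYZ made 126 and 164 CPM of this. In bulk RNA, fewer cells of a type and less RNA per cell cannot be told apart.

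Promoters of 3 genes are shown because their genes were higher with caffeine and belong to the apical surface of absorptive cells. The brush border list had the highest median ratio, though SLC26A3 is not a member of it. These promoters were also chosen because they carry the core site of HNF1, a homeodomain factor of liver and gut. They span 250 bases before and 50 bases from the start site on (RefSeq, GRCh38.p14), and are printed 5′ to 3′ on the strand of the gene. Capitals mark GTTAAT or its reverse complement. SLC26A3, a chloride and bicarbonate exchanger, lies on the minus strand (chr7:107803174-107803473) and has the letters 93 and 83 bases upstream of the start. MGAM, maltase-glucoamylase, lies on the plus strand (chr7:141995629-141995928) and has them 137 and 77 bases upstream. SI, sucrase-isomaltase, lies on the minus strand (chr3:165078447-165078746) and has them 166 bases upstream.
SLC26A3: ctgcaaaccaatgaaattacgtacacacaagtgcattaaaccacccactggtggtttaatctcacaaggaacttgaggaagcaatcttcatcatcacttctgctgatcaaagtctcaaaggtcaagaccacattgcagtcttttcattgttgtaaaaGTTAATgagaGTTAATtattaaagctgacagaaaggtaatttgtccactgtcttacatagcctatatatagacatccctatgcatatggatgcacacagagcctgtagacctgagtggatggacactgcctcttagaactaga
MGAM: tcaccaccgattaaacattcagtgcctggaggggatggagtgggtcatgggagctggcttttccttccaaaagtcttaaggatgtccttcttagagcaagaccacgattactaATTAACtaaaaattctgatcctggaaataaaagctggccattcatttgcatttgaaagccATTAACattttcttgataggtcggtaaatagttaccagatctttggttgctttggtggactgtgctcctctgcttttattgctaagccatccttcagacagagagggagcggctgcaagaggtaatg
SI: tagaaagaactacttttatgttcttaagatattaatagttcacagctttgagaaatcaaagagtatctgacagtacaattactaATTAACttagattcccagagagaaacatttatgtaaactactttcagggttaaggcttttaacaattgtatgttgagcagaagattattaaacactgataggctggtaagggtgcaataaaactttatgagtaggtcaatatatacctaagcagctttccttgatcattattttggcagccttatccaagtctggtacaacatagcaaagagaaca

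Searched on both strands, GTTAAT was in 98 of the 1565 promoters matched to genes that were higher with caffeine (6.26%) and in 30 of the 911 matched to genes that were lower (3.29%). It was in 3.99% of the 12094 promoters of genes kept and in 6.89% of all 27305 promoters. Of the 21 promoters of the brush border list described next, 6 held it (28.6%), and of the 14 among them whose genes were higher, 4 did (28.6%). The cyclic AMP response element TGACGTCA was in 2.05% of the promoters of higher genes, 3.29% of those of lower genes and 3.12% of those of genes kept. Its core TGACG, which every full element contains, was in 28.6%, 30.9% and 32.7% in the same order. The antioxidant element TGACNNNGC was in 14.6%, 16.1% and 15.1%. A match says only that the letters are in this window, and the HNF1 core site was chosen after the values were seen.

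With 1 library a side no p-value can be given for the pair. A gene is called apart where its levels differ by at least 2-fold and the exact conditional binomial 95% interval of the ratio excludes 1. That interval covers counting error only, not the variation between cultures, and reads were not tagged by molecule. By this rule 3740 of the 18237 genes were apart (20.5%), of which 2190 were higher with caffeine (12%) and 1550 lower (8.50%). Counts of list members are to be read against these shares. The median log2 ratio over all genes was 0.20, and 0.00 with genes that had no counts in a library set at their bound (3 counts there). The scaling bears on the balance of directions. With DESeq2 size factors the median shift of the log2 ratios is -0.18, and 1632 genes were higher against 1913 lower. With TMM on protein-coding genes the median shift is -0.20, and 1281 of those genes were higher against 1478 lower. List medians are to be read against that shift. It is nearly the same for every gene and smaller than 0.5. Medians at least 0.5 from 0 therefore could not change sign with the scaling. Of 48 lists, those at least 0.5 above 0 went from 12 to 9 under either of these scalings. Those at least 0.5 below 0 went from 10 to 13.

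**Figure D1:**
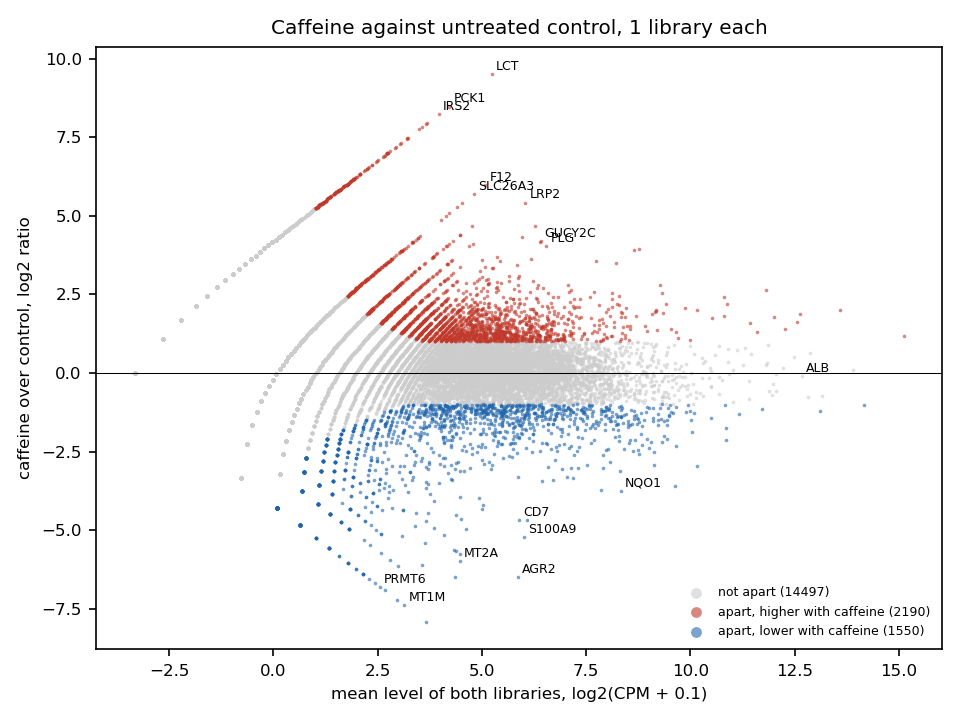
Each point is a gene kept, placed by its mean level in both libraries (log2 of CPM + 0.1) and by its log2 ratio, caffeine over control; red and blue points are apart. The 2190 red genes include LCT and PCK1, which had no control counts and lie on the upper diagonal line, and the 1550 blue genes include AGR2, MT1M and NQO1.

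Among the 48 lists, chosen with earlier results of these data known, genes of the brush border and of apical endocytosis stood highest. Of 25 members tested, 17 were higher with caffeine and none lower, and the median log2 ratio was 1.74. LCT, which encodes lactase, had 75.5 CPM with caffeine, no counts in the control and 0.896 CPM with exosomes. Its level with caffeine was 26.1-fold higher than 3 counts, the bound used for an empty control. The 95% interval of its ratio starts at 21.1. LRP2, the endocytic receptor megalin, had 128 CPM with caffeine, 2.89 CPM in the control and 6.57 CPM with exosomes, a ratio of caffeine over control of 44.3 (95% interval 15.1 to 215). For both genes the control and exosome libraries were low and the caffeine library stood apart. CUBN and AMN encode the 2 parts of the cubilin receptor complex, which works with megalin. CUBN had 16.5 CPM with caffeine and 1.93 CPM in the control, and AMN 72.2 and 9.65 CPM, ratios of 8.55 (2.32 to 71.3) and 7.48 (4.04 to 15.7).

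The genes named next, for the links between neighbouring microvilli and for microvillus motors, were each higher. CDHR5, a protocadherin of the microvillus tip, had 32.9 CPM with caffeine and 2.89 CPM in the control, and its partner CDHR2 had 37.0 and 5.79 CPM. USH1C (harmonin), which anchors both, had 114 and 28.0 CPM. The motors MYO7B and MYO1A had 10.4 and 86.0 CPM with caffeine against 0.965 CPM (1 count) and 16.4 CPM in the control. Among surface enzymes, ANPEP (aminopeptidase N) had 184 CPM with caffeine and 55.0 CPM in the control, SI had 13 and 0.965 CPM, and MGAM had 5.97 and 0.965 CPM. MGAM stood at 6.87 CPM with exosomes, so its difference is not seen against that library. CDX2, a homeodomain factor of the intestinal epithelium, had 145 CPM with caffeine, 43.4 CPM in the control and 30.8 CPM with exosomes, a ratio of 3.33 (2.47 to 4.59), while CDX1 had no counts in either library. The structural genes VIL1 (villin) at 244 and 316 CPM and EZR (ezrin) at 208 and 220 CPM were not apart, nor was DPP4 at 17.7 and 12.5 CPM.

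Several other epithelial transport and signalling genes were among the 10 protein-coding genes most clearly higher. SLC26A3 had 55.2 CPM with caffeine, 0.965 CPM in the control and 2.69 CPM with exosomes, a ratio of 57.2 whose interval starts at 10.2. GUCY2C, the receptor for guanylin that makes cyclic GMP, had 159, 8.68 and 12.5 CPM in the same order, a ratio of 18.3 (9.63 to 40.2). AQP10, an aquaglyceroporin, had 41.4, 0.965 and 1.79 CPM, and PTGIS, which makes prostacyclin, had 45.0, 0.965 and 2.39 CPM. In the list of secreted epithelial products, 3 of 15 members were higher and 5 lower. The mucin gene MUC13 had 90.3 CPM with caffeine and 10.6 CPM in the control, and the trefoil factor TFF2 had 101 and 16.4 CPM. AGR2, a disulfide isomerase that mucin folding needs, went the other way with 1.17 CPM against 115 CPM, and CEACAM6, a cell adhesion molecule, had 0.117 against 6.75 CPM. The list thus splits rather than moving one way.

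**Figure D2:**
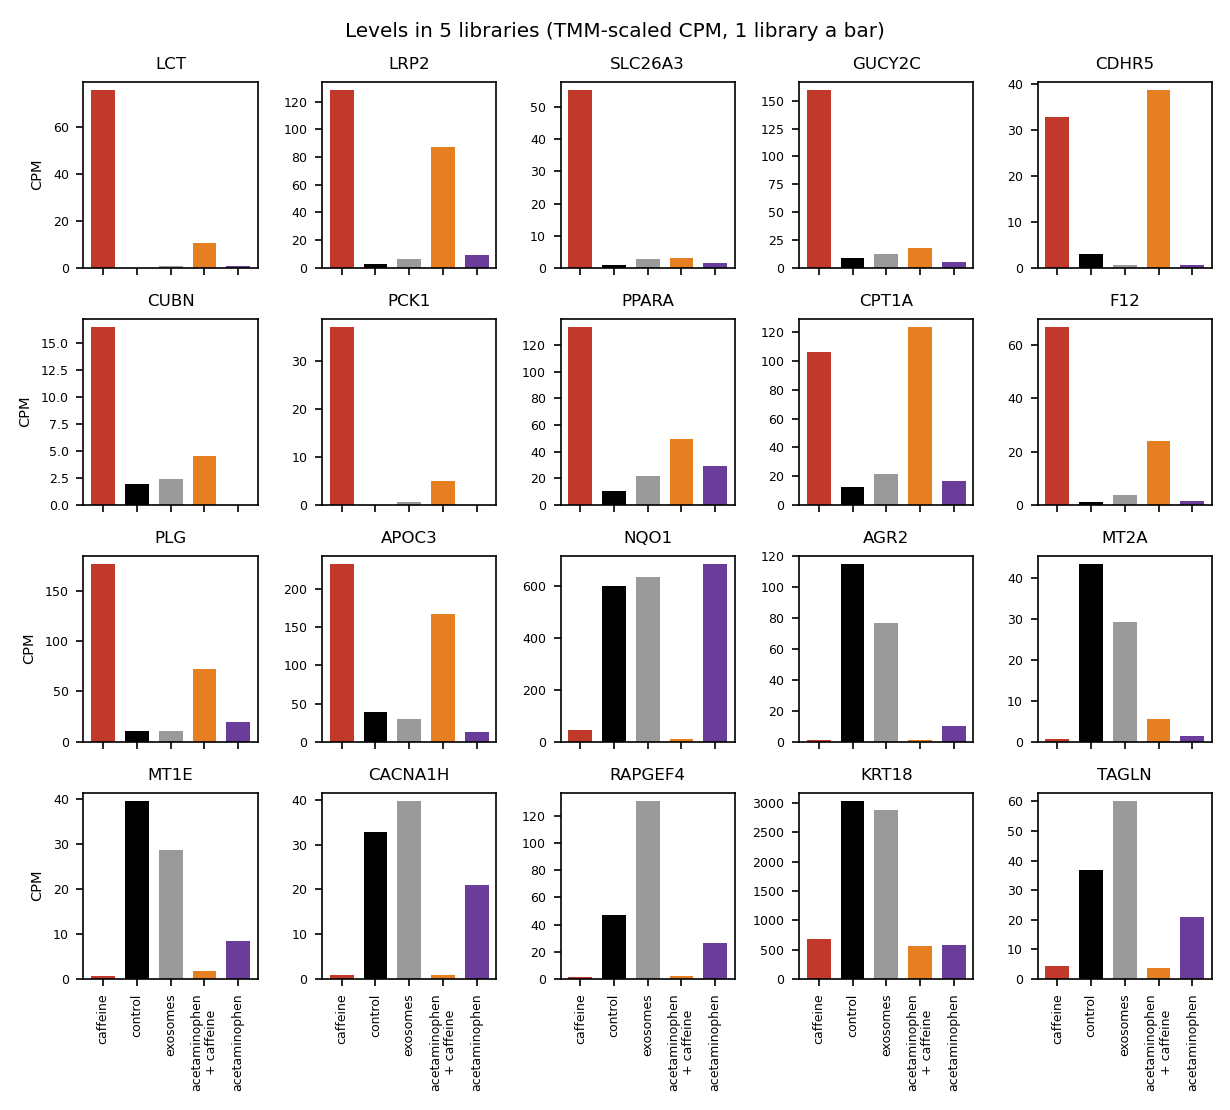
Bars give TMM-scaled CPM of 20 genes in the caffeine, control, exosome, acetaminophen with caffeine and acetaminophen libraries, 1 library a bar, each panel on its own linear axis. LCT stands at 75.5 CPM with caffeine and has no control bar, and NQO1 at 44.7 CPM with caffeine against 600 CPM in the control.

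Of 22 transcription factors of hepatocyte identity tested, 10 were higher with caffeine, 1 was lower and 11 were not apart, with a median log2 ratio of 0.62. HNF4A, the nuclear receptor at the centre of this network, had 1072 CPM with caffeine, 408 CPM in the control and 412 CPM with exosomes, a ratio of 2.63 (2.38 to 2.90). HNF4G, its relative in the gut, had 28.6 and 5.79 CPM, CEBPD 43.2 and 9.65 CPM, CEBPA 26.1 and 8.68 CPM, and ONECUT1 (HNF6) 45.5 and 11.6 CPM with caffeine and in the control. The xenobiotic sensor NR1I2 (PXR) had 11 and 2.89 CPM. FOXA3, a forkhead factor of liver, was the lower one, with 23.3 CPM against 90.7 CPM.

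The gluconeogenesis and fasting list had the second highest median. It had 7 of 16 members higher and none lower, and a median log2 ratio of 1.17. PCK1, cytosolic phosphoenolpyruvate carboxykinase and a classical target of cyclic AMP, had 37.1 CPM with caffeine, no control counts and 0.597 CPM with exosomes. It was 12.8-fold higher with caffeine than the bound of 3 control counts, and its interval starts at 10.4. IRS2, an insulin receptor substrate that fasting induces, had 31.1, 0 and 3.58 CPM in the same order. It was 10.8-fold higher than that bound, and its interval starts at 8.68. PCK2, the mitochondrial form, had 136 CPM with caffeine and 37.6 CPM in the control. G6PC1, the last enzyme of glucose release, had 5 counts with caffeine and none in the control and did not pass the filter. The coactivator PPARGC1A had 5.15 CPM with caffeine and 1.93 CPM in the control and was not apart.

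In lipid metabolism most genes were not apart, and of those apart in its oxidation and synthesis lists all but 1 were higher. In fatty acid oxidation 8 of 25 were higher and none lower (median log2 ratio 0.80). The nuclear receptor PPARA had 133 CPM with caffeine, 10.6 CPM in the control and 21.5 CPM with exosomes, a ratio of 12.6 (6.99 to 25.2). CPT1A, which admits fatty acids to mitochondria, had 106, 12.5 and 21.5 CPM. In fatty acid and triglyceride synthesis 8 of 19 were higher and 1 lower (0.79). GPAT3 and GPAM, which begin glycerolipid synthesis, had 35.5 and 191 CPM with caffeine against 3.86 and 35.7 CPM in the control. The 1 lower member was ME1, malic enzyme, with 16.4 CPM against 40.5 CPM. Among cholesterol genes 4 of 28 were higher and 2 lower (0.15).

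Genes of sugar metabolism were apart in both directions. Of 27 glycolysis genes 5 were higher and 3 lower, and the median log2 ratio was -0.22. The higher ones included SLC2A2 (GLUT2) with 21.6 CPM against 0.965 CPM, PKLR (liver pyruvate kinase) with 11.8 against 0.965 CPM, ALDOC with 138 against 47.3 CPM and PFKFB4 with 52.4 against 15.4 CPM. The lower ones were PKM, pyruvate kinase of most other tissues, with 774 CPM with caffeine against 2102 CPM in the control, ENO1 with 1208 against 2423 CPM, and PGAM1 with 137 against 399 CPM.

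Coagulation genes were higher in 10 of 25 cases and lower in 1, with a median log2 ratio of 0.82. F12, coagulation factor XII, had 66.7 CPM with caffeine, 0.965 CPM (1 count) in the control and 3.58 CPM with exosomes, a ratio of 69.1 whose interval starts at 12.4. PLG, plasminogen, had 176, 10.6 and 10.5 CPM, a ratio of 16.6 (9.25 to 33.3). F7, F10 and PROC were 2.68 to 4.09 times as high with caffeine. Other plasma proteins had 8 of 36 higher and 5 lower (0.67). HP (haptoglobin) had 80.2 CPM with caffeine and 6.75 CPM in the control, and ITIH1 16.8 and 0.965 CPM. The acute-phase genes ORM1 and ORM2, a near-identical pair between which reads may be split, had 26.1 and 30.8 CPM with caffeine against 217 and 252 CPM in the control.

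Apolipoproteins had 5 of 20 higher and 2 lower, with a median log2 ratio of 0.61 and of 0.34 with empty libraries at their bound. APOA1 and APOC3, neighbours in 1 gene cluster, had 3001 and 232 CPM with caffeine against 562 and 38.6 CPM in the control. APOA2, also a protein of high-density lipoprotein, had 263 CPM with caffeine, 2041 CPM in the control and 1283 CPM with exosomes. The genes of the 2 main proteins of high-density lipoprotein thus differed in opposite directions over control. With acetaminophen and caffeine over acetaminophen both were higher, at log2 ratios of 2.00 for APOA1 and 1.27 for APOA2. Bile acid genes had 9 of 23 higher and 1 lower (0.73, and 0.50 at the bound), among them AMACR with 26.1 against 1.93 CPM and CYP27A1 with 105 against 23.2 CPM. NR0B2 (SHP), the repressor that bile acids induce, was the lower one with 7.61 CPM against 30.9 CPM. Urea cycle and amino acid genes had 5 of 24 higher and 1 lower (0.86), led among genes with control counts by CPS1, the first enzyme of the cycle, with 42.2 CPM against 1.93 CPM. ABC transporters had 9 of 23 higher and 1 lower (0.84, and 0.50 at the bound), among them ABCB1 (P-glycoprotein) with 112 against 21.2 CPM and ABCA1, which loads cholesterol onto APOA1, with 417 against 102 CPM.

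Xenobiotic metabolism had 8 of 28 members higher and none lower, with a median log2 ratio of 0.91 and of 0.24 at the bound, since 6 members had no control counts. CYP1A2 itself had 1 count in each library. CYP1A1, its inducible relative, had 236 CPM with caffeine, 67.5 CPM in the control and 61.5 CPM with exosomes, a ratio of 3.50 (2.76 to 4.50). FMO5, of the flavin-containing monooxygenase family, had 26.7 CPM with caffeine and 2.89 CPM in the control, and the sulfotransferase SULT2A1 59.4 and 9.65 CPM.

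**Figure D3:**
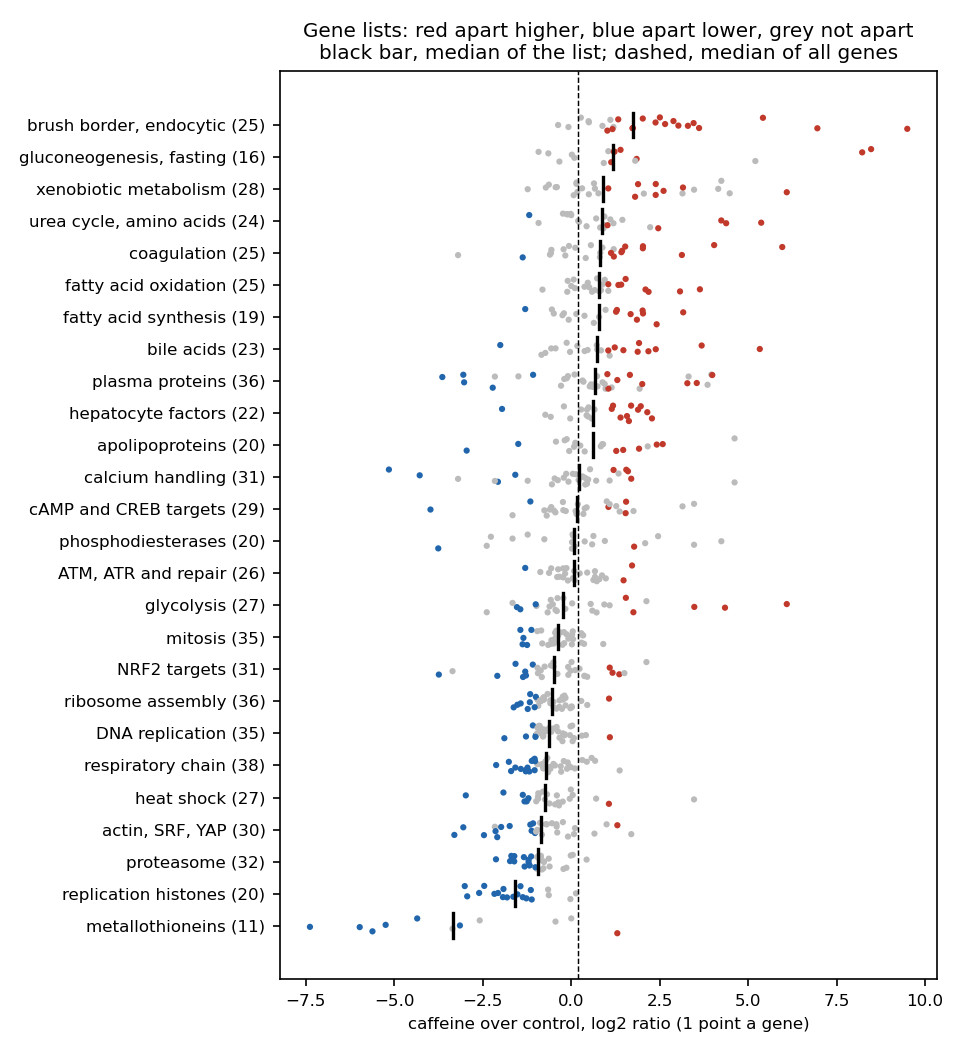
Each point is a gene of a list, placed by its log2 ratio, caffeine over control; numbers of genes tested stand in brackets, black bars are list medians and the dashed line is the median of all genes, 0.20. Lists run from brush border genes (median 1.74) at the top to metallothioneins (median -3.36) at the bottom, of which 4 of 11 had no counts with caffeine.

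The known targets of caffeine were measured too. Their transcript levels do not report receptor or enzyme activity. The median log2 ratios of the phosphodiesterase, cyclic AMP target and repair lists are smaller than the shift between scalings and change sign with it. ADORA1 had no counts in either library, ADORA2A had 4 counts with caffeine and 2 in the control, and ADORA2B 22 counts and none. The ryanodine receptors RYR1, RYR2 and RYR3 had 7, 3 and 1 counts with caffeine and 1, 1 and 0 counts in the control. None of these genes was apart from the control at this depth. Against the exosome library ADORA2B was higher, with 2.57 CPM with caffeine and 0.299 CPM with exosomes. RYR3 was lower against it, with 0.117 CPM with caffeine and 3.28 CPM with exosomes. Of 20 phosphodiesterase genes tested, PDE11A was higher with 10.2 against 2.89 CPM and PDE7B lower with 1 count against 3, and the median log2 ratio was 0.07. The most abundant cyclic AMP phosphodiesterases were not apart: PDE8A had 90.9 CPM with caffeine and 58.9 CPM in the control, PDE3A 78.4 and 40.5 CPM, and PDE4D 28.4 and 48.2 CPM.

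Among adenylyl cyclases, kinase A subunits and their relatives, 4 of 26 were higher and 2 lower. ADCY5 had 13 CPM with caffeine against 0.965 CPM, and ADCY6 106 against 39.6 CPM. RAPGEF4 (EPAC2), an exchange factor that cyclic AMP switches on, had 1.40 CPM with caffeine, 47.3 CPM in the control and 131 CPM with exosomes, a ratio of 0.0297 (0.0144 to 0.0567). Cyclic AMP and CREB target genes had 3 of 29 higher and 2 lower, with a median log2 ratio of 0.15, near that of all genes. PER1 was higher with 39.8 against 13.5 CPM, and IER3 lower with 3.51 against 56.9 CPM. Adenosine receptor and purine genes had 1 of 17 higher, the xanthine oxidase gene XDH with 12.6 against 0.965 CPM, and 1 lower, the nucleoside transporter SLC29A2 with 55.8 against 131 CPM.

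Calcium genes had 4 of 31 higher and 4 lower. CACNA1H, a low-voltage-activated calcium channel, had 0.819 CPM with caffeine, 32.8 CPM in the control and 39.7 CPM with exosomes, a ratio of 0.0250 (0.00934 to 0.0572). The inositol trisphosphate receptors parted: ITPR1 and ITPR2 had 24.5 and 37.1 CPM with caffeine against 10.6 and 12.5 CPM in the control, and ITPR3 had 29.3 against 87.8 CPM. STIM1, the calcium sensor of the endoplasmic reticulum, had 61.8 against 20.3 CPM. CACNB1 was lower with 1.76 CPM against 7.72 CPM, but stood at 0.896 CPM with exosomes, which turns its direction. ATM, ATR and repair genes had 2 of 26 higher and 1 lower (median log2 ratio 0.07). ATM itself had 63.8 CPM with caffeine, 19.3 CPM in the control and 45.1 CPM with exosomes. SMG1 had 129, 46.3 and 142 CPM, so it was higher than in the control but not than in the exosome library.

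Metallothioneins, small proteins that bind zinc and copper, were the lowest list. Of 11 members tested, 6 were lower and 1 was higher, and the median log2 ratio was -3.36. Of these 11, 4 had no counts with caffeine and 1 had none in the control. With empty libraries at their bound the median was -3.54. Its size rests on members near the floor and on the prior counts. MT2A had 0.585 CPM with caffeine, 43.4 CPM in the control and 29.3 CPM with exosomes, and MT1E had 0.702, 39.6 and 28.7 CPM. MT1M had no counts with caffeine, 17.4 CPM in the control and 11.9 CPM with exosomes, at least 49.5-fold lower than in the control. The paralogs are alike in sequence, so reads may be split between them. The higher member was MTF1, the zinc-sensing factor that switches these genes on, with 19.2 CPM against 7.72 CPM and 18.2 CPM with exosomes.

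Targets of NRF2, the factor of the oxidative stress response, had 7 of 31 lower and 3 higher. NQO1, a quinone reductase, had 44.7 CPM with caffeine, 600 CPM in the control and 633 CPM with exosomes, a ratio of 0.0745 (0.0654 to 0.0847). The pentose phosphate genes TALDO1 and TKT had 61.1 and 116 CPM with caffeine against 157 and 282 CPM in the control. HMOX1 (heme oxygenase), SLC7A11 (cystine import) and EPHX1 (epoxide hydrolase) were higher, with 81.8, 45.6 and 109 CPM against 31.8, 20.3 and 51.1 CPM. AKR1B10 was lower with 1.05 against 4.82 CPM, but had 0.597 CPM with exosomes.

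Several other genes were among the 10 protein-coding genes most clearly lower. S100A9, a calcium-binding protein best known from myeloid cells, had 3.28 CPM with caffeine, 125 CPM in the control and 61.8 CPM with exosomes. CD7, a surface protein best known from T cells, had 4.33, 114 and 60.9 CPM in the same order. Of the 16 blood markers 9 had no counts in the control, among them CD3E, MS4A1, CD68 and NKG7. PTPRC, CD14, CD163, ITGAM, HBB and LYZ had counts there, LYZ at 164 CPM. CD3D had 0.234 CPM with caffeine and 3.86 CPM in the control. COL5A3, a collagen chain, had 0.702, 40.5 and 18.2 CPM. RARRES2 (chemerin) and PRMT6, an arginine methyltransferase, had no counts with caffeine, and 9.65 and 11.6 CPM in the control. These are at least 27.5-fold and 33.0-fold lower.

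Cytoskeletal genes were lower in 11 of 30 cases and higher in 1, with a median log2 ratio of -0.86. ACTB, cytoplasmic actin, had 856 CPM with caffeine, 2860 CPM in the control and 2241 CPM with exosomes. KRT18, a keratin of simple epithelia, had 687, 3030 and 2875 CPM, TAGLN (transgelin) 4.33, 36.7 and 60.0 CPM, and FSCN1 (fascin) 10.6, 106 and 95.8 CPM. KRT19, a keratin of bile ducts, had 69.0 CPM with caffeine and 325 CPM in the control. Of 27 transforming growth factor and matrix genes 7 were lower and 2 higher, among the lower LTBP1 with 5.85 against 28.0 CPM and TIMP1 with 0.234 against 3.86 CPM.

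Lists of protein turnover, respiration and growth had negative medians and more members lower than higher. Over all genes 12% were higher and 8.50% lower, and of these lists DNA replication and mitosis stood nearest to the share lower. Proteasome subunits had 14 of 32 lower and none higher (median log2 ratio -0.94), for example PSMB4 with 152 against 667 CPM. Heat shock genes had 6 of 27 lower and 1 higher (-0.74), for example HSPB1 with 21.4 against 170 CPM and HSP90AA1 with 454 against 1088 CPM. Nuclear genes of the respiratory chain had 14 of 38 lower and none higher (-0.70), for example COX7A2 with 77.0 against 336 CPM. Ribosome assembly had 8 of 36 lower and 1 higher (-0.55), DNA replication 5 of 35 and 1 (-0.62), and mitosis 5 of 35 and none (-0.38). Replication-dependent histones, whose messages lack a poly(A) tail, had 16 of 20 lower and none higher (-1.58), for example H1-2 with 129 CPM with caffeine, 995 CPM in the control and 638 CPM with exosomes. Only 20 of the 48 histone entries could be tested.

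Transcript length moved with the ratio. The median log2 ratio of protein-coding genes went from -0.24 in the shortest quintile through 0.03, 0.21 and 0.36 to 0.55 in the longest. Of the shortest quintile 18.5% were lower with caffeine and of the longest 3.16%. Against the exosome library the same quintiles had medians of -0.11, 0.01, 0.02, 0.05 and -0.01. Members in the shortest quintile were 15 of 32 proteasome genes, 20 of 38 respiratory chain genes, 18 of 20 histones and 0 of 25 brush border genes. Against the exosome library the list medians of proteasome, respiratory chain and histone genes were -0.83, -0.52 and -0.87, those of heat shock and cytoskeletal genes -0.65 and -0.94, and that of metallothioneins -4.10. For the higher lists the exosome library gave 1.37 for the brush border, 0.84 for gluconeogenesis, 0.43 for hepatocyte factors, 0.82 for coagulation and 0.63 for fatty acid oxidation. These values share the caffeine library with the main pair. With a trend on GC content and length removed, the medians over control were -0.97 for the proteasome, -0.65 for the respiratory chain, -1.38 for histones and 1.66 for the brush border, and that of all genes was 0.06.

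**Figure D4:**
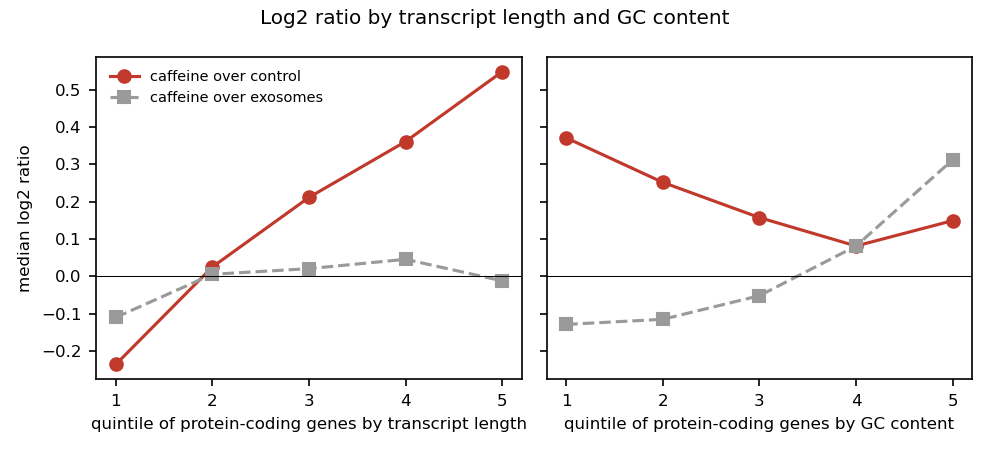
Points give the median log2 ratio of protein-coding genes in quintiles by transcript length (left) and GC content (right), for caffeine over control (red) and caffeine over exosomes (grey squares). Over the control the median climbs with length to 0.55, and over the exosome library it stays between -0.11 and 0.05.

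The remaining lists are given by their counts, to be read against the 12% higher and 8.50% lower of all genes. Endoplasmic reticulum chaperones had 1 of 23 higher and 3 lower, ATF4 stress genes 3 of 30 and none, autophagy and lysosome genes 4 of 40 and 1, and p53 targets 4 of 22 and 1. Early genes had 3 of 28 higher and 3 lower, clock genes 3 of 19 and 1, and splicing factors with their CLK kinases 2 of 22 and 3. Biliary and progenitor genes had 3 of 19 higher and 5 lower, arginine methyltransferases none of 8 and 2, nuclear long noncoding RNAs 3 of 16 and 1, and mitochondrial messages 2 of 13 and none. Nonsense-mediated decay factors and substrates had 7 of 28 higher and none lower, of which GAS5, SNHG1, SNHG5 and SNHG12 host small nucleolar RNAs in their introns.

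Small RNA classes differed in both directions. Of 161 small nucleolar RNA genes, which guide modification of ribosomal RNA, 78 were higher with caffeine and 15 lower, and the class took 8.35% of gene counts with caffeine and 4.85% in the control. SNORD104 had 6212 CPM with caffeine, 992 CPM in the control and 823 CPM with exosomes. SNORD3A (U3), which acts in cleaving the ribosomal precursor, was lower, with 5293, 12260 and 7092 CPM. The host SNHG1 had 19701 CPM with caffeine and 4882 CPM in the control, and its reads cannot be told apart from those of the small RNAs inside it where annotations overlap. Of 22 mitochondrial transfer RNA genes 15 were higher and none lower, for example MT-TM with 815 CPM with caffeine against 53.1 CPM. Of 161 small nuclear RNA genes, which include the spliceosomal RNAs and their copies, 6 were higher and 60 lower, while the class took 6.30% of gene counts with caffeine and 3.64% in the control. Of 297 genes annotated as miscellaneous RNA 2 were higher and 111 lower, and the class took 3.08% with caffeine and 2.42% in the control. The median log2 ratio of small nuclear and of miscellaneous RNA genes was -2.27, the value given to a gene with 1 count in each library. In the control 1 count meets the filter level, so members near the floor can look lower with caffeine. The numbers lower are thus no measure of a fall of either class.

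Acetaminophen with caffeine against acetaminophen alone is a second look at caffeine in 2 other libraries, on a background of acetaminophen. In it 3461 genes were higher (19%) and 2706 lower (14.8%). Of the genes higher with caffeine over control, 686 were higher here too (31.3% of the caffeine over control list and 19.8% of this one), and 295 were lower (13.5%). Of the genes lower with caffeine, 303 were lower here too (19.5% of the caffeine over control list and 11.2% of this one) and 273 were higher (17.6%). GC content moved with this second ratio, whose median log2 value went from -0.88 in the quintile of protein-coding genes lowest in GC to 1.6 in the highest, and its part was not tested.

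By list, brush border and gluconeogenesis genes had medians of 0.83 and 0.89 in the second pair, with 10 of 25 and 7 of 16 members higher and 1 of each lower. All 17 apart members of the brush border list were higher with caffeine over control, and 10 of these were higher here and 1, GCNT3, lower. LRP2 had 87.5 CPM with acetaminophen and caffeine and 9.12 CPM with acetaminophen, LCT 10.7 and 0.702 CPM, F12 24.1 and 1.40 CPM, and PCK1 4.90 CPM and no counts. NQO1 had 11.9 and 682 CPM, AGR2 0.942 and 10.5 CPM, RAPGEF4 2.07 and 26.7 CPM, and CACNA1H 0.942 and 21.1 CPM. These genes were apart in the same direction in both pairs, as were GUCY2C, PLG, IRS2 and AQP10. SLC26A3, PTGIS, SI, HNF4A and PPARA, higher over control, were not apart here, at log2 ratios of 1.03, 1.59, 0.10, 0.32 and 0.74. KRT18 and MT2A, lower over control, were not apart either, at -0.04 and 1.85. FSCN1, lower over control, was higher here at 2.73. Proteasome and heat shock genes had medians of -0.60 and -1.13, coagulation genes of -0.05 and metallothioneins of -0.04. Bile acid genes and apolipoproteins had medians of 0.84 and 1.07. Those of fatty acid oxidation and xenobiotic metabolism were 0.15 and 0.16, beside 0.16 for all genes. Respiratory chain genes, lower over control, had a median of 0.17 here, with 11 of 38 higher and 7 lower. The median of NRF2 targets was 0.19. Of proteasome genes apart in both pairs, 5 had the same direction and 3 the opposite one, and of heat shock genes 4 and 2. PSMB4 and HSPB1, the examples given above as lower over control, were among those higher here, at log2 ratios of 1.67 and 3.85. Cyclic AMP targets, at 0.15 over control, had a median of 1.39, with 14 of 29 higher and 3 lower. Histones and cytoskeletal genes had the opposite sign from the main pair, at 1.20 and 0.91. The small nucleolar RNA median was 1.09 over control and -1.47 here.

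**Figure D5:**
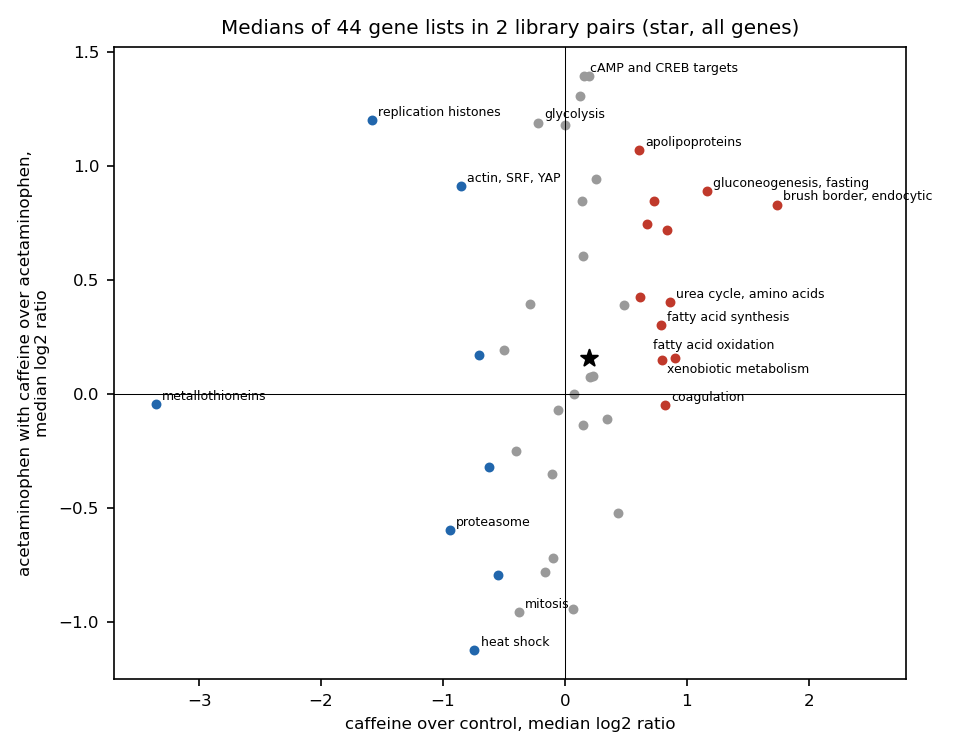
Each point is a gene list, placed by its median log2 ratio for caffeine over control (horizontal) and for acetaminophen with caffeine over acetaminophen (vertical), red and blue where the first is at least 0.5 from 0; the star is all genes. Brush border and gluconeogenesis genes are positive in both, and histones (-1.58 and 1.20) and actin genes (-0.86 and 0.91) change sign.

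The pair alone allows no test, so a test was run over all 9 libraries, in an additive model. Arsenic entered it as a single term, whatever its dose and with or without copper. The spread therefore comes from departures from additivity and from differences among the arsenic libraries. The caffeine term of the model (edgeR quasi-likelihood test, Benjamini-Hochberg adjustment) called 15 of 18237 genes (0.0823%), 4 of them higher and 11 lower. Another count, of genes with an unadjusted p under 0.05, was 1334. The count of genes called rests on single libraries: it was 0 without the control, 2 without the caffeine library, 5 without acetaminophen, 6 without acetaminophen with caffeine, and 221, 153 and 35 without the low arsenic dose, the high arsenic dose and arsenic combined with copper. The higher ones were LCT, LRP2, F12 and ABCA7. None of these 4 passed with DESeq2 size factors in edgeR, where the adjusted p was 0.0501 for LRP2, 0.0743 for F12, 0.101 for ABCA7 and 0.105 for LCT. LRP2 had a log2 fold change of 4.19 (SE 0.82, adjusted p = 0.0232), F12 of 4.96 (SE 1.02, adjusted p = 0.0312), and LCT of 6.11 (SE 1.29, adjusted p = 0.0384). ABCA7, a lipid transporter, had 18 CPM with caffeine and 2.89 CPM in the control, and the combination with acetaminophen gave 238 CPM against 4.21 CPM for acetaminophen without caffeine (log2 fold change 4.58, SE 0.95, adjusted p = 0.0344).

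The lower ones included CACNA1H at -4.87 (SE 0.81, adjusted p = 0.0072), AGR2 at -5.36 (SE 0.94, adjusted p = 0.0106), PRMT6 at -6.92 (SE 1.25, adjusted p = 0.0123), NQO1 at -4.77 (SE 0.91, adjusted p = 0.0216) and RAPGEF4 at -4.34 (SE 0.84, adjusted p = 0.0219) in edgeR. The others included GATA1, TNFRSF13B, TXNDC8, the U2 copy RNU2-25P and the antisense gene ENSG00000228714. GATA1, an erythroid factor, TNFRSF13B, a B-cell receptor, and TXNDC8 had no counts with caffeine and 9, 7 and 9 counts in the control. PCK1, IRS2 and MT1E did not pass, with adjusted p of 0.0676, 0.0608 and 0.0746 in edgeR. A caffeine by acetaminophen term called 0 genes in edgeR, with 198 at an unadjusted p under 0.05.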

How the data were processed

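Per the labels' protocols, total RNA was depleted of ribosomal RNA with RiboMinus, prepared with an Ion Total RNA-Seq kit and read on a Proton instrument. What the authors deposited are raw counts of reads for each Ensembl gene, 1 table per library. The submitters' processing notes name TopHat2 2.0.13, HTSeq 0.6.1 and the build GRCh37. No label states the strand setting or annotation release, so reads of overlapping and antisense genes cannot be told apart. Lines for unassigned reads (57.5% of reads with caffeine, 64.0% in the control) were left out.

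Names came from RefSeq, and types, transcript lengths and GC content from GENCODE 29 (GRCh38). No coordinates were converted. The filter was 1 CPM or more in 2 or more libraries, and scaling was by TMM. Ratios used on average 0.5 prior counts, shared in proportion to library size, for log2 values, and CPM as such for printed ratios. Genes were apart at 2-fold or more with an exact conditional binomial 95% interval excluding 1. A library with no counts was set to 3 counts for a bound, which leaves out the counting error of the other library. The edgeR quasi-likelihood fit took caffeine, acetaminophen, exosomes and arsenic (any dose, with or without copper) as additive terms. It left 4 residual degrees of freedom, and calls were at an adjusted p of 0.05. A printed SE is the log2 fold change over the root of the F statistic. Both methods were tested on simulated data.

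The comparison, the gene lists (1217 of 1252 entries matched) and the tests were chosen with earlier results of these data known. Named genes are the 10 protein-coding genes higher and the 10 lower whose interval bound lies farthest from 1, up to 4 apart members of each list, genes called by the model, and caffeine targets and liver genes whatever their values. Further list members are examples chosen after their values were seen. Some genes are not reported here. Alternatives were other scalings, no filter, a 4-fold threshold, the caffeine library thinned to the control's total count, a GC and length trend removed, the exosome library in place of the control, DESeq2, and leaving out libraries. Software was R 4.3.3, edgeR 4.0.16, DESeq2 1.42.0, Python 3.11.15, scipy 1.17.1 and matplotlib 3.10.9.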

Additional observations from a re-analysis of the deposited data

Results flagged for a closer look

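Some genes and lists differed one way with caffeine over control and the other way with acetaminophen and caffeine over acetaminophen. S100A9 had log2 ratios of -5.21 over control and 1.31 over acetaminophen, and CYP1A1 of 1.80 and -2.29. The caffeine by acetaminophen term gave an adjusted p of 1 for each in edgeR. The median log2 ratio of replication histones was -1.58 over control and 1.20 over acetaminophen, that of cytoskeletal genes -0.86 and 0.91, and that of the 5 blood markers tested -0.77 and 0.94. For these lists the difference between the pairs was not tested.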

How the results depend on the processing

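No paired analysis was possible because each condition has 1 library. The count of genes apart, 3740 in the main setting, was 1519 at a 4-fold threshold (755 higher and 764 lower) and 2426 among genes at a mean of 10 CPM or more (1575 higher and 851 lower), a setting chosen after the data were seen. Of the genes apart, 58.6% were higher in the main setting, 46.0% with DESeq2 size factors, 54.3% unscaled, 46.4% with TMM on protein-coding genes (1281 higher), 49.8% with the GC and length trend removed, 51.9% against the exosome library, and 63.9% with the caffeine library thinned to the control total (1891 higher and 1067 lower). At 4-fold, 254 genes had the same direction in both pairs and 65 the opposite one, against 989 and 568 at 2-fold. The caffeine term called 56 genes with DESeq2, 7 with size factors in edgeR (0 higher and 7 lower), 49 without a filter and 275 in the 6 libraries without arsenic, and from 0 to 221 with 1 library left out. Log2 ratios turned for CACNB1 (0.91), AKR1B10 (0.74) and SMG1 (-0.14) against the exosome library, and for KCNQ1OT1 (-0.20) with the trend removed. The cause was not tested. Of 935 values of single genes under alternatives, 860 stayed on their side, 68 lost their call, 3 gained one and 4 turned. Of 384 values of list medians, 15 came to lie under 0.5 from 0 and 16 came to lie at least 0.5 from it. No list median at least 0.5 from 0 changed sign, which a change of scaling alone could not bring about. Depth limits the ratios, since 2208 genes kept had no counts in the control.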
